A study of Mus musculus with 203 samples.

Results

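Granins and the enzymes that cut and trim peptide hormones were measured in single neurons of the mouse nucleus ambiguus, the column of cholinergic motor neurons in the medulla that supplies the heart and the larynx. The 10 genes described were chosen by name, out of 24029 in the count table. They are the granins Scg2, Scg3, Scg5, Chga, Chgb and Vgf, the prohormone convertases Pcsk1 and Pcsk2, the carboxypeptidase Cpe and the amidating enzyme Pam. Wild-type mice, C57BL/6 in the labels and C57BL/6NCrl in the study's methods, received the retrograde tracer cholera toxin B at postnatal day 1, into the pericardial space for cardiac neurons (Amb Cardiac) or into the cricothyroid muscle for laryngeal neurons (Amb Laryngeal). Fluorescent cell bodies were aspirated from acute brainstem slices on postnatal days 2 to 4 and sequenced 1 by 1 with Smart-seq2, a full-length cDNA method without molecular identifiers. The deposited annotation sorts the sequenced neurons into 53 ACP and 98 ACV, the types into which the authors clustered the cardiac cells, and 52 Amb Laryngeal. Neurons came from several mice per tracer, but the labels do not tie a neuron to a mouse.

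Peptide-secreting cells store their cargo in dense-core vesicles. Granins are acidic proteins that aggregate with peptide precursors in the trans-Golgi network and help to form these vesicles, and most granins are themselves cut into bioactive peptides. Inside the vesicle, the convertases encoded by Pcsk1 and Pcsk2 cleave precursors after basic residues, carboxypeptidase E removes the exposed basic residues, and peptidylglycine alpha-amidating monooxygenase (Pam) converts a terminal glycine into the amide that many peptides, calcitonin gene-related peptide among them, need for activity. Cholinergic motor neurons use dense-core vesicles alongside the small clear vesicles that hold acetylcholine.

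A level is given below as counts of a gene per 10000 counts outside Rn45s, the ribosomal RNA precursor gene, averaged over the neurons of a type with the SD over neurons. Because mice were not named, each type counted as 1 sample, no difference between types was tested, and SDs and ranges describe neurons and not replicates. The percentage of neuron pairs in which a neuron of the first type had the higher level is called the pair share (ties counted equally to both). Types with a pair share between 30 and 70% were taken as not apart beyond the spread of their neurons. Total counts per neuron ran from 840315 to 3175434 in Amb Cardiac and from 542162 to 3292763 in Amb Laryngeal neurons. Rn45s took 38.5% ± 14.8 (SD, n = 98) of the counts in ACV, 37% ± 12.9 (SD, n = 53) in ACP and 58.2% ± 15.7 (SD, n = 52) in Amb Laryngeal neurons, and the median number of counts outside it was 1120512, 1115375 and 560892. Chat, Slc18a3, Slc5a7, Isl1 and Prph, which mark cholinergic cranial motor neurons, had reads in most neurons of every type. Among the 20 glial and vascular markers, Gfap, Mog, Olig2, Sox10, Pdgfra and the 7 microglial and vascular genes were at a median of 0 in every type, and the summed level of the 20 ran from 0.124 to 87.9 in ACP, from 0.325 to 321 in ACV and from 0 to 182.2 in Amb Laryngeal neurons. Markers of glutamatergic, GABAergic and glycinergic neurons (Slc17a6, Slc17a7, Gad1, Gad2, Slc32a1 and Slc6a5) summed to 3.401 ± 3.42 (SD, n = 52; range 0 to 12.4) in Amb Laryngeal neurons, against 1.29 ± 2.96 (SD, n = 53; 0 to 19.97) in ACP and 1.54 ± 3.37 (SD, n = 98; 0 to 22.2) in ACV, and Slc17a7 and Slc6a5 were at a median of 0 in every type. Their part in the Amb Laryngeal values below was not tested. The study describes a limit on Apoe counts, and 39 Amb Cardiac neurons (11 ACP, 28 ACV) and 0 of 52 Amb Laryngeal neurons of the deposited table were above it. That limit is on raw counts, of which Amb Laryngeal neurons had fewer. Per 10000 counts outside Rn45s the median Apoe level was 8.92 in ACP, 8.55 in ACV and 9.77 in Amb Laryngeal neurons.

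All 10 genes were read in every type, and the set as a whole was at similar levels in the 3 types while its makeup differed. Their summed level was 43.5 ± 24 (SD, n = 53) in ACP, 38.4 ± 14.5 (SD, n = 98) in ACV and 35.5 ± 15.3 (SD, n = 52) in Amb Laryngeal neurons, with pair shares of 51.1% for ACP over ACV, 58% for ACP over Amb Laryngeal and 57.4% for ACV over Amb Laryngeal. Scg2 provided 33.2% of this sum in ACV, 23.9% in ACP and 8.54% in Amb Laryngeal neurons. Chga provided 26.4% in Amb Laryngeal neurons, 13.3% in ACP and 9.55% in ACV. Cpe provided 28.6, 27.8 and 36.6% in ACP, ACV and Amb Laryngeal neurons. Per kilobase of exon, which is the scale used here to compare genes, Cpe ranked 51st to 77th among 12621 compared genes in the 3 types, whereas Pcsk1, Pcsk2 and Pam ranked between 3510th and 8440th.

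**Figure D1:**
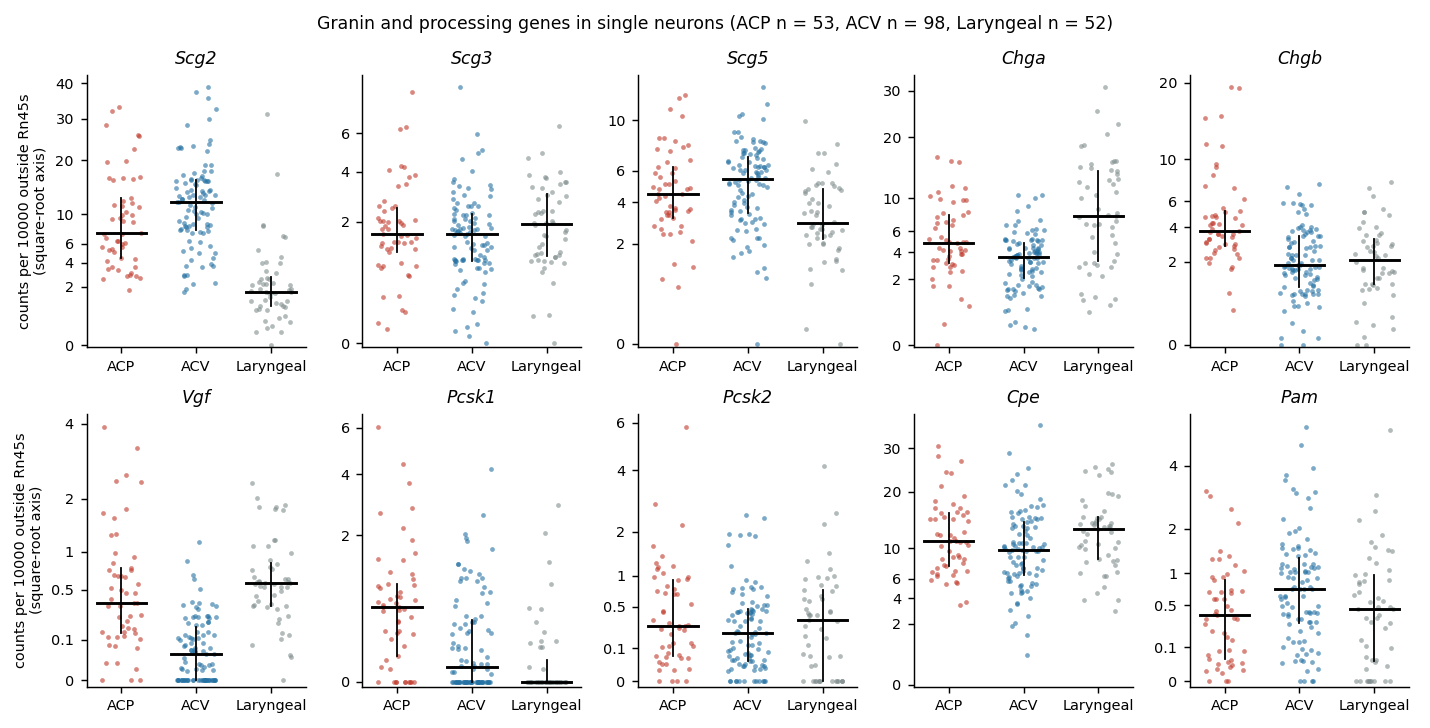
Level of each gene in every neuron of the 3 types, in counts per 10000 counts outside Rn45s on a square-root axis. Each point is 1 neuron, horizontal lines are medians and vertical lines span the quartiles. Scg2 was lower in most Amb Laryngeal neurons (median 1.69) than in ACP (7.39) and ACV (12.1), and Vgf was lower in ACV (median 0.0436) than in both other types.

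Scg2 (secretogranin II, the precursor of secretoneurin; chr1:79434669-79440120 in GRCm38, minus strand) had the largest pair share of the 10 genes between Amb Cardiac and Amb Laryngeal neurons. Its level had a median of 12.1 in ACV (range 1.69 to 38.8), 7.39 in ACP (1.79 to 33.3) and 1.69 in Amb Laryngeal neurons (0 to 31.3). All 53 ACP and all 98 ACV neurons lay above the Amb Laryngeal median, while 2 of 52 Amb Laryngeal neurons lay above the ACV median and 4 above the ACP median. The means were 12.8 ± 7.74 (SD, n = 98), 10.4 ± 7.90 (SD, n = 53) and 3.03 ± 4.92 (SD, n = 52). Amb Cardiac neurons as a whole had 3.94 times the Amb Laryngeal mean, with a pair share of 91.4%. The Amb Laryngeal mean rested in part on single cells. Its highest neuron carried 19.8% of the summed level, and without that neuron the mean was 2.48. ACV and ACP were not apart, at a pair share of 61.9% for ACV.

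Chga (chromogranin A, a core granin of endocrine cells and the precursor of several peptides; chr12:102554969-102565028, plus strand) had the opposite order. The median was 7.77 in Amb Laryngeal neurons (range 0.518 to 30.7), 4.87 in ACP (0 to 16.4) and 3.602 in ACV (0.114 to 10.5). A total of 35 of 52 Amb Laryngeal neurons were above the ACP median and 38 were above the ACV median, and only 5 of 98 ACV neurons exceeded the Amb Laryngeal median. Amb Laryngeal neurons averaged 9.37 ± 6.89 (SD, n = 52), 2.55 times the ACV mean of 3.67 ± 2.19 (SD, n = 98) at a pair share of 75.6%. ACP lay between them at 5.78 ± 3.86 (SD, n = 53) and was not apart from either neighbour, with a pair share of 64.3% for Amb Laryngeal over ACP and 66.2% for ACP over ACV. Chga also spread more widely among Amb Laryngeal neurons, where the upper quartile was 4.35 times the lower, than in ACP (2.52 times) or ACV (2.30 times). Scaled to totals with Rn45s, the mean ratio of Amb Cardiac to Amb Laryngeal neurons was -0.59 on the log2 scale in place of -1.09 and that of ACV to Amb Laryngeal neurons was -0.84 in place of -1.35, both under 2-fold.

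The contrast between these granins held inside single neurons, where it does not depend on how a library is scaled. Per kilobase of exon, Scg2 exceeded Chga in 94 of 98 ACV neurons (95.9%, exact Clopper-Pearson 95% interval 89.9 to 98.9%) and in 44 of 53 ACP neurons (83%, 70.2 to 91.9%), but in 11 of 52 Amb Laryngeal neurons (21.2%, 11.1 to 34.7%). Scg2 made up a median of 79.5% of the 2 together in ACV, 64.9% in ACP and 20.05% in Amb Laryngeal neurons. These intervals, like all those below, cover the counting of neurons only.

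**Figure D2:**
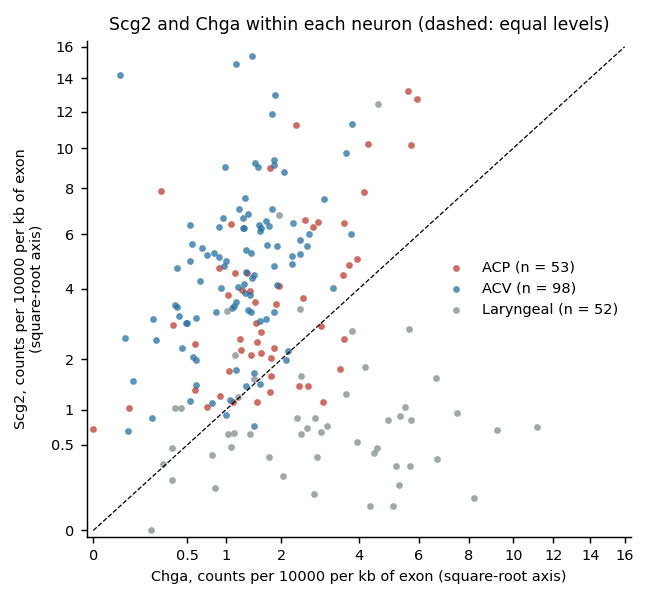
Scg2 against Chga in each neuron, both in counts per 10000 counts outside Rn45s per kilobase of exon, on square-root axes. Each point is 1 neuron coloured by type and the dashed line marks equal levels. Above the line lie 94 of 98 ACV and 44 of 53 ACP neurons, against 11 of 52 Amb Laryngeal neurons.

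Chgb (chromogranin B, which sorts with Chga into the same vesicles; chr2:132781278-132795079, plus strand) was the granin that set ACP apart from both other types. Its median was 3.75 in ACP (range 0.351 to 19.3), 1.86 in ACV (0 to 7.49) and 2.10 in Amb Laryngeal neurons (0 to 7.75). In all, 49 of 53 ACP neurons were above the ACV median and 48 were above the Amb Laryngeal median. Mean levels were 5.22 ± 4.21 (SD, n = 53), 2.33 ± 1.73 (SD, n = 98) and 2.39 ± 1.87 (SD, n = 52), so ACP had 2.24 times the ACV mean (pair share 78%) and 2.18 times the Amb Laryngeal mean (76.9%). ACV and Amb Laryngeal neurons did not differ beyond their spread, at a pair share of 49.5%. Within neurons Chgb exceeded Chga per kilobase in 21 of 53 ACP, 24 of 98 ACV and 3 of 52 Amb Laryngeal neurons.

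Vgf (a neurotrophin-inducible granin-like precursor; chr5:137026392-137033351, plus strand) was low in ACV relative to the other two types. ACV neurons had a median level of 0.0436 (range 0 to 1.15), ACP neurons 0.366 (0 to 3.91) and Amb Laryngeal neurons 0.571 (0 to 2.37). Only 4 of 98 ACV neurons exceeded the Amb Laryngeal median and 6 exceeded the ACP median. The mean of 0.117 ± 0.191 (SD, n = 98) in ACV compared with 0.692 ± 0.864 (SD, n = 53) in ACP, 5.90 times as high at a pair share of 81.7%, and with 0.704 ± 0.568 (SD, n = 52) in Amb Laryngeal neurons, 6.003 times as high at a pair share of 90.01%. ACP and Amb Laryngeal neurons were not apart, at a pair share of 58.7% for Amb Laryngeal. At least 1 read was found in 64 of 98 ACV (65.3%, 55.02 to 74.6%), 50 of 53 ACP (94.3%, 84.3 to 98.8%) and 51 of 52 Amb Laryngeal neurons (98.1%, 89.7 to 99.95%). When every neuron was thinned to 118492 counts outside Rn45s these shares became 38.8, 84.9 and 94.2%, in the same order. The ratio of Amb Cardiac to Amb Laryngeal neurons, -1.14 on the log2 scale, averages the unlike values of ACP and ACV, and was -0.72 with totals that include Rn45s.

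Scg3 (secretogranin III, which tethers Chga to vesicle membranes; chr9:75643189-75684056, minus strand) differed little, with means of 2.04 ± 1.66 (SD, n = 53) in ACP, 1.77 ± 1.38 (SD, n = 98) in ACV and 2.10 ± 1.35 (SD, n = 52) in Amb Laryngeal neurons and pair shares of 53.1% for Amb Laryngeal over ACP and 54.02% for ACP over ACV. Scg5 (7B2, the chaperone of the Pcsk2 convertase; chr2:113776362-113829121, minus strand) averaged 5.35 ± 2.50 (SD, n = 98) in ACV, 4.92 ± 2.78 (SD, n = 53) in ACP and 3.51 ± 2.05 (SD, n = 52) in Amb Laryngeal neurons. Its ratio of Amb Cardiac to Amb Laryngeal means was 1.48, the pair share was 70.1%, and its SD over Amb Cardiac neurons was 0.501 of the mean, the smallest of the 10 genes. The Scg5 distributions overlapped widely, from 0 to 13.1 in Amb Cardiac and from 0 to 9.90 in Amb Laryngeal neurons.

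Pcsk1 (the convertase PC1/3; chr13:75089826-75134861, plus strand) was read in 43 of 53 ACP neurons (81.1%, 68.03 to 90.6%), 54 of 98 ACV neurons (55.1%, 44.7 to 65.2%) and 15 of 52 Amb Laryngeal neurons (28.8%, 17.1 to 43.1%). After thinning to equal counts the shares were 77.4, 46.9 and 26.9%. For scale, genes of microglia and vessels, which a neuron should lack, had reads in 0 to 30.2% of ACP, 1.02 to 38.8% of ACV and 3.85 to 32.7% of Amb Laryngeal neurons, so the Pcsk1 share of Amb Laryngeal neurons was within that range. Mean levels were 0.840 ± 1.19 (SD, n = 53) in ACP, 0.346 ± 0.661 (SD, n = 98) in ACV and 0.182 ± 0.531 (SD, n = 52) in Amb Laryngeal neurons, and medians were 0.519, 0.0188 and 0. ACP had 4.61 times the Amb Laryngeal mean (pair share 80.04%) and 2.43 times the ACV mean (69%). By pair share ACP and ACV were thus not apart. The Amb Laryngeal mean depended on few cells, since its highest neuron held 30.8% of the summed level and the mean without it was 0.128. ACV and Amb Laryngeal neurons were not apart either, at a pair share of 63.1% for ACV. The ratio of ACV over Amb Laryngeal, at 0.93 on the log2 scale, was 1.25 when the highest neuron of each type was left out.

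Pcsk2 (the convertase PC2; chr2:143546156-143816285, plus strand) had a more even distribution. It was read in 49 of 53 ACP, 86 of 98 ACV and 38 of 52 Amb Laryngeal neurons, and in 73.6, 66.3 and 65.4% of them after thinning. Means were 0.618 ± 0.941 (SD, n = 53), 0.385 ± 0.535 (SD, n = 98) and 0.522 ± 0.755 (SD, n = 52), with pair shares of 55.4% for ACP over Amb Laryngeal, 52.2% for Amb Laryngeal over ACV and 58.3% for ACP over ACV, so the 3 types were not apart. Its exons share 359 bases with the opposite-strand genes Pcsk2os1 and Pcsk2os2. Whether the counting used strand is not given in the sources used here, and Nextera XT libraries do not mark it, so reads of these genes cannot be told apart there.

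The share of neurons with reads of both convertases fell from ACP to ACV to Amb Laryngeal neurons. The share with a read of each convertase taken separately had the same order. Whether both were read together more often than these separate shares would give was not tested. The levels of Pcsk1 and Pcsk2 had a Spearman's rho of -0.09 in ACP, 0.15 in ACV and -0.03 in Amb Laryngeal neurons. Reads of both were found in 40 of 53 ACP neurons (75.5%, 61.7 to 86.2%), 49 of 98 ACV neurons (50%, 39.7 to 60.3%) and 13 of 52 Amb Laryngeal neurons (25%, 14.04 to 38.9%). Pcsk2 without Pcsk1 was found in 9 ACP, 37 ACV and 25 Amb Laryngeal neurons, and neither in 1, 7 and 12. Thinned to equal counts, both were read in 54.7% of ACP, 32.7% of ACV and 19.2% of Amb Laryngeal neurons.

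**Figure D3:**
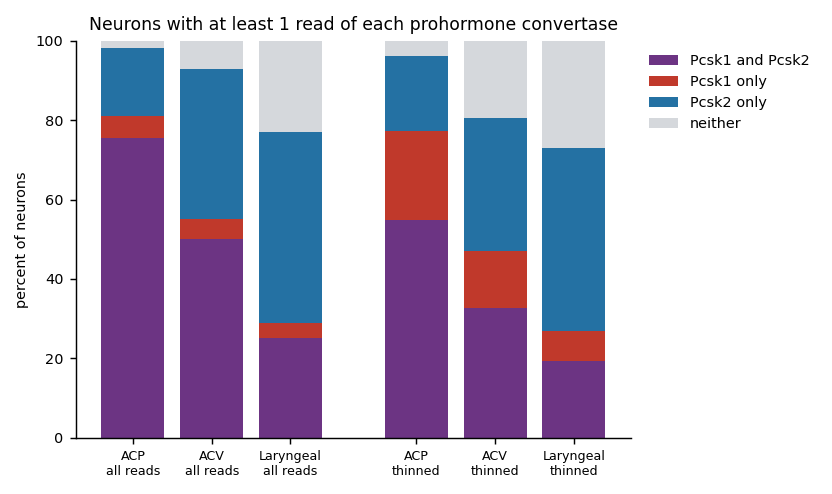
Percent of neurons of each type with at least 1 read of Pcsk1 and Pcsk2 together, of 1 convertase alone or of neither, from all reads (left) and after thinning each neuron to the same number of counts outside Rn45s (right). Neurons with both are 75.5% of ACP, 50% of ACV and 25% of Amb Laryngeal neurons with all reads.

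Cpe (carboxypeptidase E; chr8:64592542-64693054, minus strand) was read in every neuron. Its level ranged from 3.43 to 30.5 in ACP (median 11.1), from 0.468 to 36.1 in ACV (9.79) and from 2.90 to 26.1 in Amb Laryngeal neurons (13.1), and the pair shares of 53.7% for Amb Laryngeal over ACP and 58.7% for ACP over ACV put no type apart. Cpe is also made by astrocytes. Among neurons of a type its level ran with that of Apoe, at a Spearman's rho of 0.32 in ACP (n = 53), 0.48 in ACV (n = 98) and 0.19 in Amb Laryngeal neurons (n = 52). In neurons with at most 900 Apoe counts the mean Cpe level was 11.9 in ACP, 7.98 in ACV and 12.8 in Amb Laryngeal neurons, against 12.4, 10.7 and 12.997 in all neurons. The part of glial RNA in the Cpe level was not tested.

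Pam (the amidating enzyme; chr1:97795114-98095646, minus strand) had its highest mean in ACV, as did Scg2 and Scg5, with no ratio between types past 2-fold unless totals include Rn45s, where ACV over Amb Laryngeal was 1.03 on the log2 scale. Means were 1.002 ± 1.08 (SD, n = 98) in ACV, 0.719 ± 0.969 (SD, n = 52) in Amb Laryngeal neurons and 0.605 ± 0.740 (SD, n = 53) in ACP, at pair shares of 61.3 and 50.6% between neighbours. Reads were found in 94 of 98 ACV, 50 of 53 ACP and 42 of 52 Amb Laryngeal neurons, and after thinning in 87.8, 75.5 and 73.1%. Pam shares part of its exons with the gene B230216N24Rik on the same strand, so its count is uncertain there.

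Counted over the set, the ratios of means exceeded 2-fold for 4 of 10 genes between Amb Cardiac and Amb Laryngeal neurons. Scg2 and Pcsk1 were higher in Amb Cardiac, where 9.02% of the 12809 genes compared (those read in at least 10% of all neurons) passed the same limit, and Chga and Vgf were higher in Amb Laryngeal neurons, where 9.71% did. Between the cardiac types Chgb, Vgf and Pcsk1 were at least 2-fold higher in ACP (8.74% of all genes), and 0 of 10 were in ACV (7.72%). Against Amb Laryngeal neurons ACP was at least 2-fold higher in Scg2, Chgb and Pcsk1 (9.59%) and lower in 0 of 10 (11.5%), while ACV was higher in Scg2 (9.48%) and lower in Chga and Vgf (13%). The median log2 ratio of the 10 genes was 0.05 for Amb Cardiac over Amb Laryngeal and 0.43 for ACP over ACV, beside -0.00028 and 0.0025 over all genes compared. Shared samples link these comparisons, since Amb Laryngeal neurons enter 3 of them.

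A pair share of at least 70% was met by a smaller share of all genes. The list of the 10 genes was shorter by it only between ACP and ACV. Scg2 and Scg5 were higher in Amb Cardiac than in Amb Laryngeal neurons by this measure (1.35% of all genes) and Chga and Vgf were higher in Amb Laryngeal (1.4%). ACP exceeded ACV in Chgb and Vgf (1.25%) and ACV exceeded ACP in 0 of 10 (0.64%). Scg2, Chgb and Pcsk1 were higher in ACP than in Amb Laryngeal neurons (1.8%), with 0 of 10 the other way (1.1%). Scg2 and Scg5 were higher in ACV than in Amb Laryngeal neurons (1.94%), with Chga and Vgf the other way (2.08%). Scg3, Pcsk2, Cpe and Pam lay within 30 to 70% in all 4 comparisons.

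**Figure D4:**
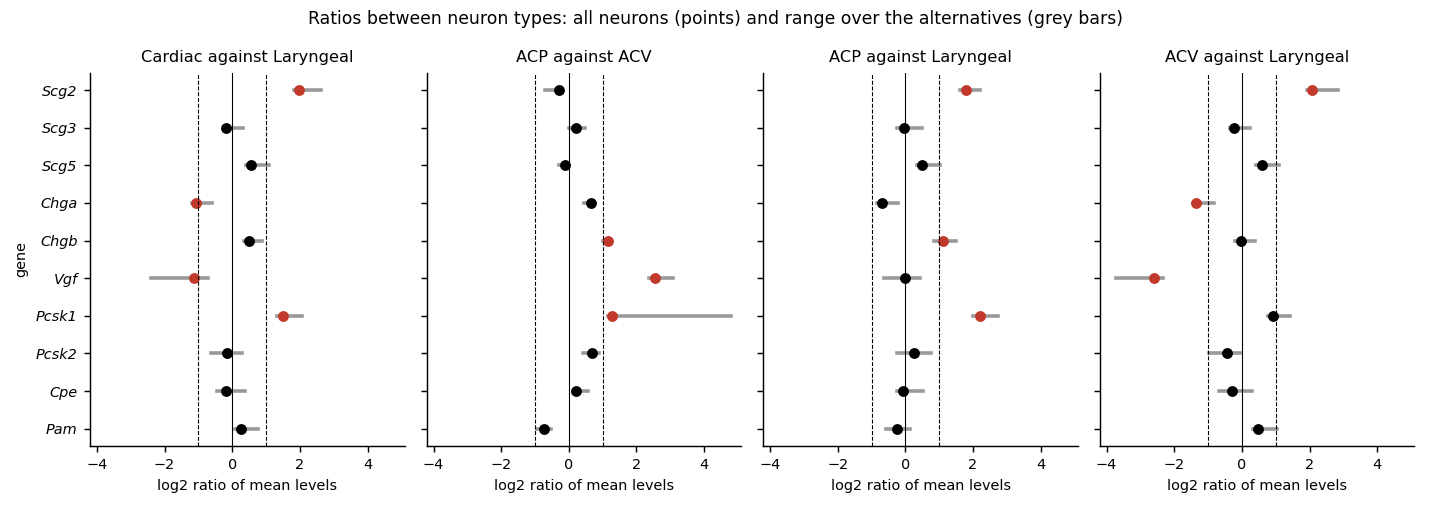
Log2 ratios of mean levels between types for each gene. Points use all neurons, red where the ratio is at least 2-fold (dashed lines), and grey bars span the alternative scalings, averages and neuron filters. Scg2 stays past 2-fold against Amb Laryngeal neurons throughout, at 1.83 to 2.62 for Amb Cardiac, and Vgf stays past 2-fold for ACP over ACV, at 2.38 to 3.07.

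Promoter windows from RefSeq (GRCm38.p6, 250 bases before to 50 after the start) were found for 8 of the 10 genes, all but Vgf and Cpe, and were searched on both strands for the cyclic AMP response element TGACGTCA and its shorter core TGACG, which the full element contains on each strand. The element is the site of CREB-family factors and a textbook feature of several granin promoters. It was present in the windows of Scg2, Chgb and Pcsk1, starting 68, 72 and 78 bases before the start, against 1.79% of all 32851 windows. The shorter core outside a full element was present in the windows of Scg3, Scg5, Chga, Pcsk1 and Pcsk2, the core in any form in 20.8% of all windows, and neither Pam window held it. Of the 8 genes with a window, the 3 with the full element were those at least 2-fold higher in ACP than Amb Laryngeal neurons. Whether Vgf and Cpe hold the element is not known here, and they were at -0.02 and -0.06 on the log2 scale for that comparison. Of the 3 genes, 2 were at least 2-fold higher in ACP than in ACV, where Scg2 was at -0.30 on the log2 scale. Between Amb Cardiac and Amb Laryngeal neurons 2 of the 3 were past 2-fold and between ACV and Amb Laryngeal neurons 1 was. With medians only Scg2, and with summed counts only Scg2 and Pcsk1, were past 2-fold for ACP over Amb Laryngeal. The pairing was noticed after the values were seen and was not tested. A match in these letters is a description and not evidence of binding. Sequence is shown 5′ to 3′ with matches in capitals, for these 3 genes and for Chga, which has the shorter core and its highest mean in Amb Laryngeal neurons. For Scg2 and Chgb, whose element lies past the GENCODE start of the gene, 30 bases around it are printed. For Pcsk1 the 100 bases before the GENCODE start are printed, and for Chga the 100 bases before the RefSeq start.
Scg2, chr1:79440076-79440105, minus strand: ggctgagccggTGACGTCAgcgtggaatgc
Chgb, chr2:132781559-132781588, plus strand: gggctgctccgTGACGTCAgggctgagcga
Pcsk1, chr13:75089726-75089825, plus strand: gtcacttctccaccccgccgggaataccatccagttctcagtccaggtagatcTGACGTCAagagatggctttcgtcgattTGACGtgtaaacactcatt
Chga, chr12:102554841-102554940, plus strand: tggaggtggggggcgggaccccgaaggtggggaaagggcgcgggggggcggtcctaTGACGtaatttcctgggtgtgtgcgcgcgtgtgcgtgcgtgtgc

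The levels were also compared among neurons of the same type. Over the 45 gene pairs the median Spearman's rho was 0.33 in ACP (n = 53 neurons), 0.20 in ACV (n = 98) and 0.18 in Amb Laryngeal neurons (n = 52), and rho was above 0.3 for 24, 10 and 9 pairs (53.3, 22.2 and 20% of them) and below 0 for 1, 5 and 8. Over all pairs of the 7722 genes read in at least 50% of all neurons the medians were 0.05, 0.04 and 0.06, and 7.06, 2.10 and 6.81% of pairs were above 0.3. Chga and Chgb had the highest mean over the 3 types, at 0.57, 0.46 and 0.64. Scg5 and Chga had 0.16 in ACP and 0.24 in ACV but 0.73 in Amb Laryngeal neurons. Scg2 ran with Chga in ACP (0.46) and ACV (0.42) and near 0 in Amb Laryngeal neurons (0.04). Pcsk1 and Pcsk2 had values near 0 in all 3 (-0.09, 0.15 and -0.03). The levels of a neuron share its library and total, and these correlations are given as descriptions. Over the 10 genes, rho with the Rn45s share ran from -0.09 (Scg5) to 0.36 (Chga) in ACP and from -0.36 (Scg2) to 0.27 (Vgf) in ACV. In Amb Laryngeal neurons it ran from -0.32 (Chgb) to 0.25 (Cpe). Scg2 had 0.23 in ACP and -0.36 in ACV and Pam 0.26 and -0.33, while Vgf had 0.35 and 0.27 and Cpe 0.34 and 0.26. The part of the Rn45s share in the correlations among genes was not tested.

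**Figure D5:**
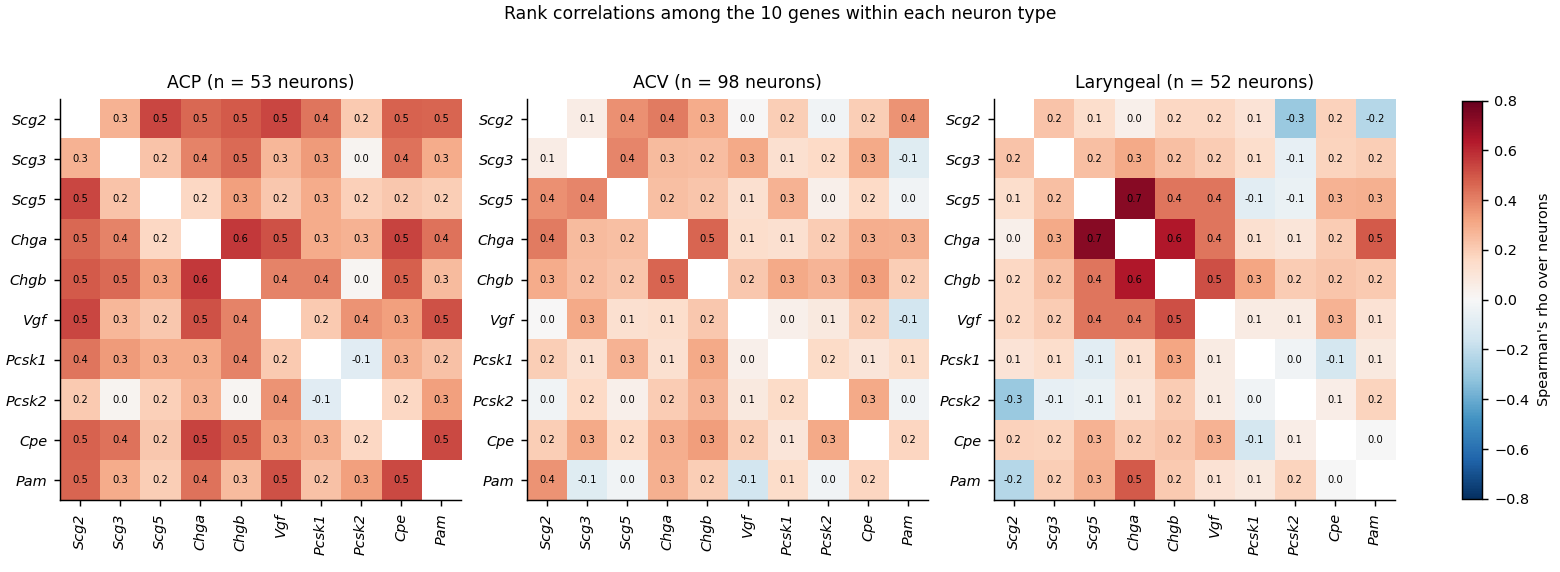
Spearman's rho between the levels of each pair of genes over the neurons of ACP, ACV and Amb Laryngeal, printed in each square and coloured from blue (negative) to red (positive). Most pairs are positive in ACP (44 of 45), and the pair of Scg5 and Chga stands out in Amb Laryngeal neurons at 0.73.

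Peptide precursors were set beside the granins in the same way. In Amb Laryngeal neurons, whose calcitonin gene-related peptide genes Calca and Calcb averaged 20.95 ± 27.2 and 13.5 ± 15.6 (SD, n = 52), Chga had a rho of 0.62 with Calca and 0.65 with Calcb, Scg5 of 0.47 and 0.50, Chgb of 0.43 and 0.47 and Pam of 0.50 and 0.43, whereas Scg2 had -0.23 and -0.14. Pdyn had 0.50, 0.21, 0.49 and 0.47 with Chga, Scg5, Chgb and Pam in these neurons, and Pnoc had 0.45, 0.33, 0.27 and 0.39. Other precursors had lower rho with Chga there, among them Npy at -0.16 and Sst at -0.09. Adcyap1, the precursor of PACAP, averaged 4.61 ± 4.46 (SD, n = 53) in ACP and 1.42 ± 1.35 (SD, n = 98) in ACV. Among ACP neurons it had a rho of 0.70 with Vgf, 0.60 with Scg2, 0.53 with Pam and 0.50 with Chgb, and among ACV neurons of 0.07, 0.23, 0.18 and 0.26 with the same genes.

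By the mean within-type rho over the 7722 genes read in at least 50% of all neurons, the genes most like Chga included Atp1b1 (0.65) and Aplp1 (0.64), and those most like Chgb included App (0.58) and Rtn3 (0.57). Scg5 was most like Tecr (0.55), Resp18 (0.54) and Rtn1 (0.52), where Resp18 is itself a protein of endocrine secretory granules. Pam was most like the choline transporter gene Slc5a7 (0.52), then Negr1 (0.41) and Acsl4 (0.41). For the other 6 genes the top value was at most 0.48.

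Of 39 further genes of dense-core vesicle formation, loading, release and peptide processing, 38 were in the table and 35 were read widely enough to be compared. Between Amb Cardiac and Amb Laryngeal neurons 4 were at least 2-fold higher in Amb Cardiac and 3 in Amb Laryngeal neurons, against 9.02 and 9.71% of all genes, with a median log2 ratio of 0.10. Between ACP and ACV 5 were higher in ACP and 2 in ACV, against 8.74 and 7.72% of all genes, with a median of 0.38. These counts lie near the shares over all genes. Sv2b, a synaptic vesicle glycoprotein gene, averaged 1.93 ± 2.24 (SD, n = 52) in Amb Laryngeal neurons, 0.843 ± 1.23 (SD, n = 53) in ACP and 0.120 ± 0.274 (SD, n = 98) in ACV, at a pair share of 77.8% for ACP over ACV. Cyb561, the cytochrome that regenerates ascorbate for Pam inside vesicles, averaged 4.79 ± 5.37 (SD, n = 53) in ACP, 1.55 ± 1.41 (SD, n = 98) in ACV and 1.42 ± 1.53 (SD, n = 52) in Amb Laryngeal neurons, so it was at least 2-fold higher in ACP although Pam was not. The vesicular monoamine transporters were low. Slc18a1 averaged 0.168 ± 0.429 (SD, n = 98) in ACV, 0.0409 ± 0.125 (SD, n = 53) in ACP and 0.0125 ± 0.0569 (SD, n = 52) in Amb Laryngeal neurons, and Slc18a2 averaged 0.691 ± 1.10 (SD, n = 53) in ACP against 0.204 ± 0.510 (SD, n = 98) in ACV.

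The remaining genes named by size of fold were read in under 50% of the neurons of each type. Pcsk5, another convertase, was read in 26 of 53 ACP, 22 of 98 ACV and 11 of 52 Amb Laryngeal neurons, with a log2 ratio of 1.498 for Amb Cardiac over Amb Laryngeal but a pair share of 55.6%. Pcsk6 was read in 6 ACP, 13 ACV and 7 Amb Laryngeal neurons, with a log2 ratio of -1.81 and a pair share of 49.3%. Cadps2, a priming factor of dense-core vesicles, had a log2 ratio of 1.53 and Unc13b, a priming factor of synaptic vesicles, of -1.56 for ACP over ACV, at pair shares of 62.9 and 46.4%. Cadps2 was read in 21 ACP and 14 ACV and Unc13b in 25 ACP and 47 ACV neurons.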

How the data were processed

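Single nucleus ambiguus neurons were sequenced by the authors on an Illumina NextSeq. Per the labels and methods, reads were trimmed with Skewer and aligned to mm10 with STAR 2.6.1d in two-pass mode, and the gene annotation and counting tool are not given in the sources used here. The deposited table holds raw counts of reads per gene, whole numbers that were not normalized by the authors. Types were taken from the deposited annotation of the neurons, which the authors made with Seurat clustering on these counts and the tracer target. A second deposited table of scaled counts was not used.

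Counts were divided by each neuron's total without Rn45s and multiplied by 10000. A type without a count was given 3 counts in all for ratios. Exonic lengths and positions came from GENCODE vM21. The 95% Clopper-Pearson intervals are over neurons, which are not tied to mice, so they cover the counting of neurons only. Smart-seq2 reads are not independent molecules, so exact Poisson intervals of the summed counts, within 0.501 to 7.92% of the pooled level, are not an error of a mean. The study compared single neurons by rank sum tests. Here neurons could not be assigned to mice, so no test was made. Genes with a read in at least 10% of all neurons were compared. The 10 genes, the 39 further vesicle genes and the peptide precursors were chosen with earlier results of these data known. Named among the further genes were those at least 2-fold apart between Amb Cardiac and Amb Laryngeal or ACP and ACV, at most 8 by fold, and for likeness the 3 closest genes of the 4 genes with the highest rho, some of which are not reported here. Alternative scalings used edgeR 4.0.16 (TMM) and DESeq2 1.42.0 (size factors), and ratios and pair shares were tested on simulated data with Python 3.11.15, numpy 2.4.6 and scipy 1.17.1.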

Additional observations from a re-analysis of the deposited data

How the results depend on the processing

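Under 11 other scalings, averages and neuron filters, the log2 ratio of Scg2 for Amb Cardiac over Amb Laryngeal stayed within 1.83 to 2.62, and Chgb, Vgf and Pcsk1 remained at least 2-fold higher in ACP than in ACV under each (lowest 1.02, 2.38 and 1.16). No ratio past 2-fold changed sign. The scaling mattered most for Amb Laryngeal neurons. With totals that include Rn45s the median of all genes moved to 0.57 for Amb Cardiac over Amb Laryngeal, 87.2% of the genes at least 2-fold apart were then higher in Amb Cardiac (48.1% without Rn45s), Chga and Vgf were under 2-fold (-0.59 and -0.72), Scg5 reached 1.08, the ACV against Amb Laryngeal list of the 10 genes became 5 (Scg2, Scg5, Pcsk1, Pam and Vgf, without Chga at -0.84), and the summed level was 23.6 in ACV and 15.01 in Amb Laryngeal neurons. With medians, ACP against Amb Laryngeal counted 1 of the 10 genes (Scg2), since the Pcsk1 median was 0 in Amb Laryngeal neurons and Chgb was at 0.84. Chga was at -0.95 for Amb Cardiac over Amb Laryngeal with means of log2 values, and Chgb was at 0.92 for ACP over Amb Laryngeal with summed counts. The Pcsk1 log2 ratio of ACP to ACV reached 4.79 with medians, the ACV median being 0.0188. Pcsk1 for ACV over Amb Laryngeal passed 2-fold in 5 of 10 alternatives (0.77 to 1.43).

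At a limit of 1.5-fold, 6 of the 10 genes differed between ACP and ACV and 5 between ACV and Amb Laryngeal neurons, where 4968 (Amb Cardiac against Amb Laryngeal), 4153 (ACP against ACV), 5153 (ACP against Amb Laryngeal) and 5525 (ACV against Amb Laryngeal) of all genes did, in place of 2399, 2109, 2699 and 2874 at 2-fold. In the same order, the 70% pair share left 352, 242, 372 and 516 genes, no detection filter gave 7263, 6209, 7733 and 7821, and a filter of reads in 50% of neurons gave 636, 437, 708 and 858. Neurons with at most 900 Apoe counts gave 3335 for ACP against ACV. Limiting neurons to the Apoe limit of the study, an alternative chosen after seeing the data like that of summed counts, kept each of the 4 lists of genes past 2-fold. No paired analysis was possible because the neurons carry no replicate numbers and no test was made. Depth limits Pcsk1, Pcsk2, Pam and Vgf most, whose shares of neurons with a read moved outside their intervals in some types with thinning or a minimum of 10 reads.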
